A study of Homo sapiens with 18 samples.

Results

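The 10 genes described here are regulators of the presomitic mesoderm (PSM) and genes of the Notch segmentation clock: TBX6, MSGN1, MESP1, MESP2, RIPPLY1, RIPPLY2, HES7, LFNG, DLL1 and DLL3. They were taken by gene name from the 57133 rows of the gene count table, and all 10 were found there. Of these, 7 had enough counts to be tested and 3 (MESP1, MESP2 and RIPPLY1) did not. In PCGF6-knockout (PCGF6-KO) pluripotent stem cells, 5 of the 7 tested genes were higher than in wild-type (WT) cells, beside 14.9% of all tested genes. These were MSGN1 and TBX6, which specify PSM, the clock gene HES7 and the Notch ligands DLL1 and DLL3. RIPPLY2 was lower, beside 8.7% of all tested genes, and LFNG differed by less than the fold threshold. MSGN1 and HES7 had enough counts for testing only in PCGF6-KO libraries, and RIPPLY2 only in WT.

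The PSM is the tissue at the tail of the embryo from which somites, the forerunners of vertebrae and skeletal muscle, are cut off in pairs. Cells leave the primitive streak, switch on TBX6 and MSGN1 under WNT and FGF signals, and then cycle their Notch signalling under the negative feedback of HES7 and the Notch-modifying enzyme LFNG. As a cell reaches the front of the tissue, TBX6 and Notch together switch on MESP2, which sets the segment boundary, and RIPPLY proteins then turn TBX6 activity off.

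RNA-seq was done on PGP1, a human induced pluripotent stem cell line, grown undifferentiated in mTeSR1 on Matrigel. There were 2 libraries each of WT cells and of the PCGF6-KO clones 1 and 2, and no group had an agent or a time point. PCGF6 is a subunit of a noncanonical Polycomb repressive complex. The clones were made from PGP1 with Cas9 and a pair of guides against the first exon of PCGF6, and each clone goes back to a single edited cell, so that an effect of the knockout and a property of a clone cannot be told apart within 1 clone. The labels do not say whether the libraries of a group came from separate cultures, so the p-values below measure the spread between these libraries only.

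The libraries held between 15877396 and 18918609 counts. Replicates differed by more than counting error, with a chi-square per degree of freedom of 2.40 for WT, 4.52 for clone 1 and 3.21 for clone 2. PCGF6 itself had 268 and 300 counts for WT, 99 and 103 for clone 1, and 187 and 159 for clone 2. Clone 1 gave a log2 fold change of −1.67 (adjusted p = 1.03e-10) and clone 2 of −0.77 (adjusted p = 1.21e-05, quasi-likelihood test of edgeR, adjusted by Benjamini-Hochberg over all 17672 tested genes, as for every adjusted p below). The pluripotency factor POU5F1 stood at 516 RPKM for WT, 537 for clone 1 and 504 for clone 2. RPKM is CPM (counts scaled to the size of the library) per kilobase of the counted gene length. This marker of the labelled cell type was thus at a high level in every group, and the PSM genes below were read at low levels beside it. Another such marker, SOX2, was lower over both clones, so POU5F1 alone does not show an unchanged cell type.

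All 10 genes are annotated as protein-coding (GENCODE release 44, GRCh38). TBX6 lies at chr16:30085793-30091924 on the reverse strand and MSGN1 at chr2:17816460-17817798 on the forward strand, the latter as a gene of 1 exon. MESP1 and MESP2 are neighbours, at chr15:89749875-89751249 (reverse) and chr15:89760591-89778754 (forward). RIPPLY1 is at chrX:106900063-106903341 (reverse) and RIPPLY2 at chr6:83853360-83857515 (forward). HES7 is at chr17:8120592-8124106 (reverse), LFNG at chr7:2512529-2529177 (forward), DLL1 at chr6:170282206-170306565 (reverse) and DLL3 at chr19:39498895-39508481 (forward). Exons of 3 of the genes overlap a gene on the opposite strand: DLL1 shares 370 bases with FAM120B, RIPPLY1 shares 341 with CLDN2 and RIPPLY2 shares 730 with ENSG00000287705. Whether strand was used in counting is not given in the sources used here, so reads in these stretches could belong to either gene. FAM120B had 707 and 761 counts for WT, 919 and 825 for clone 1, and 806 and 695 for clone 2, and was not called in any comparison.

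The promoters of 4 genes that changed and had an available sequence are shown. These are MSGN1 and TBX6, the PSM pair that rose together, HES7, the clock gene that rose, and RIPPLY2, the gene that fell. RefSeq promoters (GRCh38.p14) were available for 7 of the 10 genes, in 9 windows, and not for DLL1, DLL3 and MESP1. Each sequence is the 250 bases before the annotated start on the gene's own strand, and the search also covered the 50 bases after it. Capitals mark a match, on either strand, to 1 of 6 fixed letter strings: AGGTGT (the core bound by T-box factors such as TBX6), TGGGAA (the core of the Notch effector RBPJ), CTTTGA (the core of the WNT effectors TCF and LEF), TATAAA (the TATA box), GCGGGAA (the site of E2F6) and CACGTG (the E-box of MAX). E2F6 and MAX are DNA-binding partners of the complex that holds PCGF6. The MSGN1 window is chr2:17816210-17816459 (forward), TBX6 is chr16:30091925-30092174 (reverse), HES7 is chr17:8124107-8124356 (reverse) and RIPPLY2 is chr6:83853110-83853359 (forward, the upstream of its 2 windows).
MSGN1: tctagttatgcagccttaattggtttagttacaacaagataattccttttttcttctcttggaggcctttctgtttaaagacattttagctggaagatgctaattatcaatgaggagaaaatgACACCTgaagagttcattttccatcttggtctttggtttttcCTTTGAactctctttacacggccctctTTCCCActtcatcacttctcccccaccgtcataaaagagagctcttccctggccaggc
TBX6: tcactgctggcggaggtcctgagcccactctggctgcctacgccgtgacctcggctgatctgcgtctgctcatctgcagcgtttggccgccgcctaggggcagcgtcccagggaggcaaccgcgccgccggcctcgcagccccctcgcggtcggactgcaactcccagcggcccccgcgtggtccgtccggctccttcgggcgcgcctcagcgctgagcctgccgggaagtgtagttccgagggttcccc
HES7: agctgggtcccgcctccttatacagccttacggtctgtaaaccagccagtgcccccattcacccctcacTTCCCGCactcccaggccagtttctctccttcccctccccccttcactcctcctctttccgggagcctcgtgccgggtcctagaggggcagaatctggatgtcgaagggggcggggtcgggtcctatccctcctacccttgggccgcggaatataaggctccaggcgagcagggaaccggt
RIPPLY2: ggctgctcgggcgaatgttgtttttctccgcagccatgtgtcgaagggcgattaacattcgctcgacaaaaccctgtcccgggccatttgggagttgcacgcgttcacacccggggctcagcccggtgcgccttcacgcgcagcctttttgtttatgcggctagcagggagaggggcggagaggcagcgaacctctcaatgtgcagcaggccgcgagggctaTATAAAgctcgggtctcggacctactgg

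The MSGN1 window held a T-box core 127 bases, a TCF/LEF core 85 bases and an RBPJ core 58 bases before the start. These strings are common: 11.4% of all 35116 promoter windows held the T-box core, 12.9% the TCF/LEF core and 24.0% the RBPJ core. The TBX6 window held none of the 6 strings. HES7 had the E2F6 string 181 bases before its start, which 6.55% of promoters held, and the RIPPLY2 window had a TATA box 28 bases before its start, which 11.5% of promoters held. The E-box of MAX, present in 7.26% of promoters, was in none of the 9 windows. In base composition the windows of this group ran from 42.3% G and C in MSGN1 to 71.7% in the other RIPPLY2 window, beside a median of 58.7% over all promoters. A match describes the letters only and is no evidence of binding.

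MSGN1, a transcription factor that drives mesoderm progenitors into PSM, was the gene with the clearest off-to-on pattern. It had 0 counts in both WT libraries, 37 and 22 in clone 1, and 155 and 93 in clone 2. Every PCGF6-KO library was thus above WT, and both clone 2 libraries were above both clone 1 libraries. Against a floor of 3 counts per WT library, MSGN1 was at least 8.64-fold higher in clone 1 (adjusted p = 7.63e-07) and at least 39.4-fold higher in clone 2 (adjusted p = 6.68e-12, edgeR). Over all 4 PCGF6-KO libraries it was at least 24.0-fold higher (adjusted p = 0.00742, edgeR). Fewer cells that express a gene and less RNA of it per cell cannot be told apart in RNA from whole cultures, here and for every gene below.

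TBX6, the T-box factor that commits cells to paraxial mesoderm, was already detected in WT. In CPM it stood at 1.97 and 2.64 for WT, 5.91 and 6.77 for clone 1, and 12.9 and 11.3 for clone 2. The 3 groups did not overlap and lay in the order WT, clone 1, clone 2. TBX6 was 2.74-fold higher in clone 1 than in WT (log2 fold change 1.46, SE 0.20, adjusted p = 1.51e-06, edgeR). In clone 2 it was 5.24-fold higher (log2 fold change 2.39, SE 0.19, adjusted p = 3.69e-11, edgeR). The PCGF6-KO libraries as 1 group gave a log2 fold change of 1.99 (SE 0.37, adjusted p = 0.00293, edgeR).

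**Figure D1:**
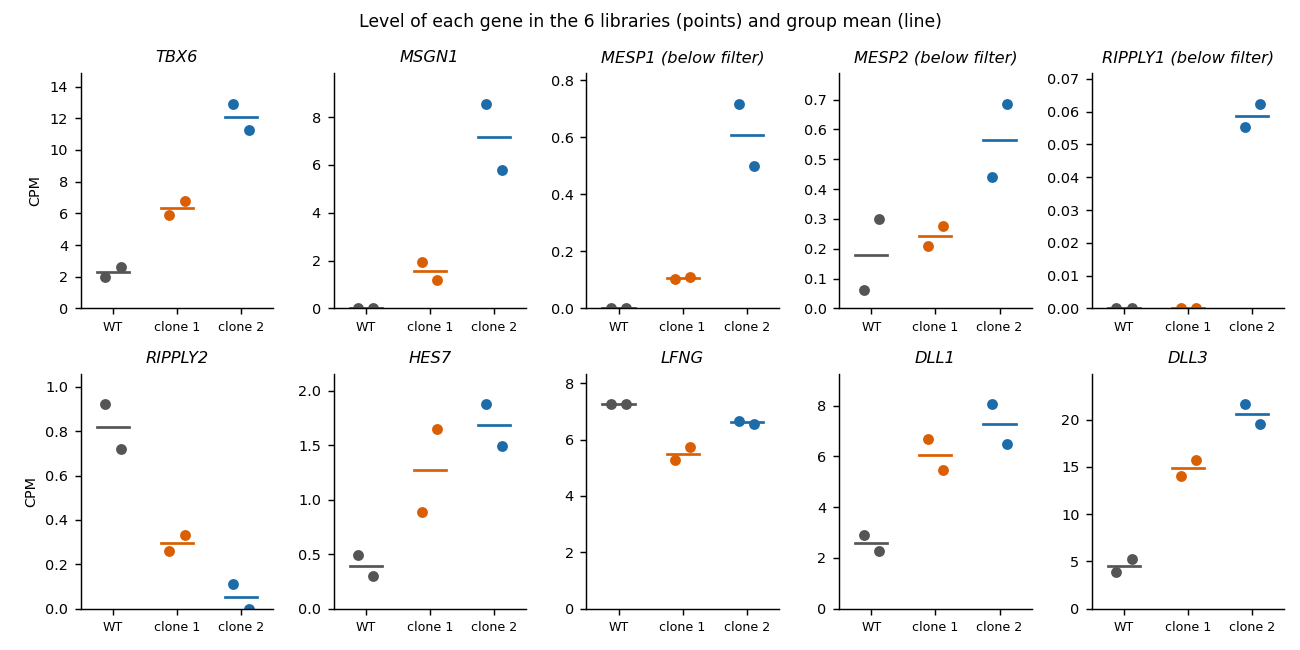
Level of each of the 10 genes in CPM (vertical axis, linear and scaled for each gene) in the 6 libraries (points), with the mean of each group as a line. TBX6, MSGN1 and DLL3 rise from WT to clone 1 to clone 2 without overlap, RIPPLY2 falls, and the 3 genes marked as below the filter rest on few counts.

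DLL3 and DLL1, Delta-type proteins of the Notch pathway, rose in both clones. DLL1 activates Notch receptors on neighbouring cells, whereas DLL3 acts inside the cell that makes it and dampens the signal. DLL3 CPM was 3.87 and 5.21 for WT, 14.0 and 15.7 for clone 1, and 21.6 and 19.6 for clone 2. DLL1 CPM was 2.89 and 2.28 for WT, 6.69 and 5.45 for clone 1, and 8.05 and 6.48 for clone 2. For both genes all PCGF6-KO libraries were above both WT libraries, and the clones overlapped for DLL1 but not for DLL3. DLL3 was 3.27-fold higher in clone 1 (log2 fold change 1.71, SE 0.15, adjusted p = 5.06e-10) and 4.53-fold higher in clone 2 (2.18, SE 0.15, adjusted p = 1.65e-12, edgeR). DLL1 was 2.35-fold higher in clone 1 (1.23, SE 0.21, adjusted p = 2.56e-05) and 2.82-fold higher in clone 2 (SE 0.21, adjusted p = 1.01e-06, edgeR). With both clones as a single group the log2 fold change was 1.96 for DLL3 (SE 0.22, adjusted p = 0.000173) and 1.37 for DLL1 (SE 0.22, adjusted p = 0.00139, edgeR). Per length, DLL3 exceeded DLL1 in every library, with a ratio of RPKM of 1.65 and 2.82 for WT, 2.58 and 3.56 for clone 1, and 3.31 and 3.72 for clone 2. The ratio in clone 1 fell partly inside the range of WT.

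HES7 and LFNG are the oscillating genes of the clock, and they did not move alike. HES7, the transcriptional repressor whose delayed feedback paces the clock, had 8 and 5 counts for WT, 17 and 30 for clone 1, and 34 and 24 for clone 2. All PCGF6-KO libraries were above WT, and the clones overlapped. HES7 was 3.16-fold higher in clone 1 (log2 fold change 1.66, SE 0.48, adjusted p = 0.0064) and 4.23-fold higher in clone 2 (2.08, SE 0.47, adjusted p = 0.000522, edgeR). Over all PCGF6-KO libraries the log2 fold change was 1.88 (SE 0.44, adjusted p = 0.00981, edgeR). The clone 1 call rested on few counts: the adjusted p was 0.118 without replicate 2 of clone 1 and 0.0668 without replicate 2 of WT, and the call over both clones also missed the threshold without the latter library (adjusted p = 0.0968, edgeR).

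LFNG, the Fringe enzyme that adds sugar to Notch receptors and so changes which ligands they answer, was the most even of the tested genes. Its CPM was 7.25 in both WT libraries, 5.28 and 5.72 in clone 1, and 6.67 and 6.54 in clone 2. The libraries of both clones were below WT by a small margin, and clone 1 was below clone 2. The log2 fold change was −0.40 in clone 1 (SE 0.16, adjusted p = 0.0469), under the fold threshold, and −0.13 in clone 2 (SE 0.16, adjusted p = 0.515, edgeR). For PCGF6-KO as a whole it was −0.26 (SE 0.16, adjusted p = 0.233, edgeR), and LFNG was not called in any of these comparisons.

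RIPPLY2, a co-repressor that ends TBX6 activity at the segment boundary, went the other way. It had 15 and 12 counts for WT, 5 and 6 for clone 1, and 2 and 0 for clone 2. The groups did not overlap, and the level was lowest in clone 2, where TBX6 was highest. The difference in RIPPLY2 between the clones was not called (adjusted p = 0.123, edgeR), and a relation to TBX6 was not tested. RIPPLY2 was 2.78-fold lower in clone 1 by its counts (95% exact interval 1.33 to 6.20, which covers counting error only) and 14.0-fold lower in clone 2 (interval 3.52 to 121). The size in clone 2 depended on single reads: its fitted log2 fold change was −3.65, and it was −2.82 without replicate 2 of clone 2 and −6.83 without replicate 1 (adjusted p = 0.0105 and 0.00109, edgeR). The last value is no bound, since replicate 2 alone had 0 counts. Its adjusted p was 0.039 in clone 1, 0.000449 in clone 2 and 0.0328 over both clones (edgeR). The clone 1 call was lost when any library of WT or clone 1 was left out, with adjusted p from 0.0646 to 0.179. The call over both clones was lost without replicate 1 of WT (adjusted p = 0.183), replicate 2 of WT (adjusted p = 0.109) or replicate 1 of clone 2 (adjusted p = 0.067, edgeR). Its relative RIPPLY3, named after its values were seen, had 18 and 15 counts in WT and 7 to 11 in the PCGF6-KO libraries and missed the threshold over both clones (log2 fold change −0.98, adjusted p = 0.0578, edgeR).

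The remaining 3 genes were too low for the count filter. MESP1, a bHLH factor of early mesoderm that is better known for the heart lineage, had 0 counts in WT, 2 in each clone 1 library, and 13 and 8 in clone 2. Clone 2 was therefore above the other libraries, at least 3.34-fold above the WT floor, and clone 1 was at or under that floor. Without the count filter, edgeR gave MESP1 an adjusted p of 0.000134 in clone 2 and 0.165 in clone 1. MESP2, the bHLH factor of the segment boundary, had 1 and 5 counts for WT, 4 and 5 for clone 1, and 8 and 11 for clone 2. Its clone 2 libraries were above the others, with a ratio to WT of 3.05 (95% exact interval 1.17 to 9.35), but the adjusted p without the filter was 0.113 in clone 2 (edgeR). RIPPLY1 had 0 counts in WT and clone 1 and 1 in each clone 2 library, which is not detectable above the floor at this depth.

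Counted together, 5 of the 7 tested genes were called higher and 1 lower over both clones, where a call needs an adjusted p under 0.05 together with a log2 fold change beyond 0.6 in size. Over all tested genes 14.9% were called higher and 8.7% lower in that comparison. Clone 1 likewise had 5 higher and 1 lower of the 7, beside 16% higher and 8.8% lower over all genes. Clone 2 had 5 higher and 1 lower as well, beside 16.9% higher and 12.5% lower over all genes. MSGN1 and HES7 passed the count filter only through their PCGF6-KO libraries, and RIPPLY2 only through WT. Their calls are therefore on genes that were tested because 1 genotype was high. The median log2 fold change of the 7 genes was 1.88 over both clones, 1.46 in clone 1 and 2.08 in clone 2, and the same medians were obtained with MSGN1 at its lower bound. Over all tested genes the median was 0.00 in each of these comparisons. The comparisons of the clones with WT share the WT libraries, so they are not independent of each other. By levels alone, 5 of the 7 genes were higher in all 4 PCGF6-KO libraries than in both WT libraries and 2 were lower (RIPPLY2 and LFNG), beside 29.5% and 27.6% of all tested genes. When the libraries of each line were summed, so that the clones were the replicates, 1 of the 7 genes remained called over both clones, namely DLL3.

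**Figure D2:**
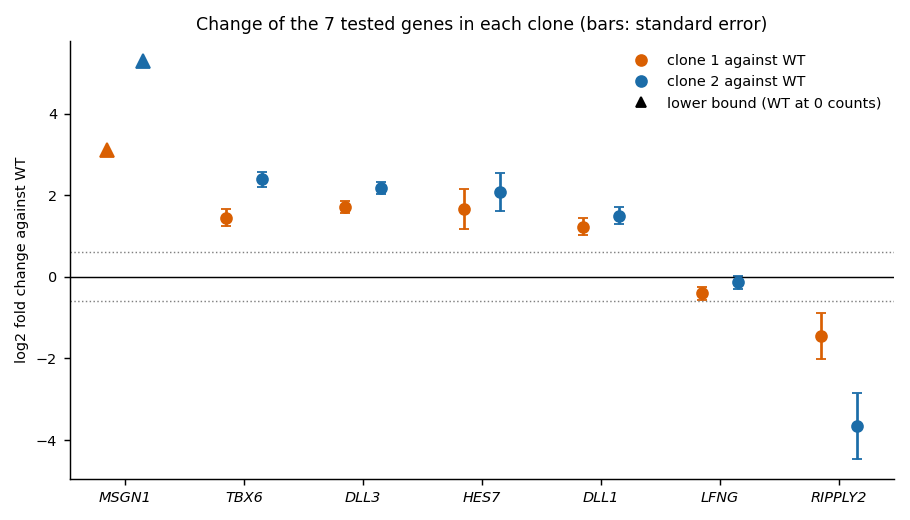
Log2 fold change against WT (vertical axis) of the 7 tested genes in clone 1 and clone 2, with standard errors as bars and the fold threshold of 0.6 as dotted lines. Triangles mark the lower bound for MSGN1, which had 0 counts in WT. MSGN1, TBX6, DLL3, HES7 and DLL1 sit above the threshold in both clones, LFNG sits within it and RIPPLY2 sits below it.

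The clones were then compared with each other. TBX6 was 1.91-fold higher in clone 2 than in clone 1 (log2 fold change 0.94, SE 0.15, adjusted p = 7.17e-05) and MSGN1 was 4.55-fold higher (2.19, SE 0.26, adjusted p = 8.34e-07, edgeR). These were the 2 of the 7 genes called higher, and none was called lower, beside 3.73% and 4.14% of all tested genes. The PSM-specifying pair was thus the set of tested genes in which the clones differed past both thresholds. Without the count filter MESP1 was called higher in clone 2 as well (adjusted p = 0.0458, edgeR). DLL3 differed by less than the fold threshold (0.47, SE 0.12, adjusted p = 0.0059, edgeR). For DLL1 the difference was 0.26 (SE 0.18, adjusted p = 0.335), for HES7 0.42 (SE 0.36, adjusted p = 0.474) and for LFNG 0.27 (SE 0.16, adjusted p = 0.285, edgeR). RIPPLY2 gave −2.20 (SE 0.98, adjusted p = 0.123, edgeR) from 2 counts in clone 2 and 11 in clone 1. The levels in clone 2 were above those in clone 1 without overlap for 4 genes (TBX6, MSGN1, LFNG and DLL3) and below for RIPPLY2, beside 28.9% and 26.6% of all tested genes. PCGF6 itself had more reads in clone 2 than in clone 1 (log2 fold change 0.90, adjusted p = 5.44e-05, edgeR). These reads do not measure PCGF6 protein, and a relation of PCGF6 to the difference between the clones was not tested.

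The order of the genes by level also differed between the groups. In WT, mean RPKM ran from 2.12 for LFNG and 1.73 for DLL3 through 0.800 for DLL1 and 0.734 for TBX6 to 0.212 for HES7 and 0.197 for RIPPLY2. The libraries of DLL1 and TBX6 overlapped there, as did those of HES7 and RIPPLY2, so these neighbours were not distinguished. In clone 1 the order was DLL3 (5.68 ± 0.463), MSGN1 (2.60 ± 0.846), TBX6 (2.02 ± 0.193), DLL1 (1.88 ± 0.274), LFNG (1.61 ± 0.0907) and HES7 (0.680 ± 0.288, mean RPKM ± SD, n = 2). MSGN1, TBX6 and DLL1 overlapped from neighbour to neighbour. In clone 2 MSGN1 came before DLL3, at 11.8 ± 3.21 and 7.87 ± 0.553, and TBX6 (3.86 ± 0.366), DLL1 (2.25 ± 0.344), LFNG (1.93 ± 0.0267) and HES7 (0.902 ± 0.144, mean RPKM ± SD, n = 2) followed without overlap. The place of MSGN1 depends on its length. The counts were scaled by the deposited length of 606 bases, and on the GENCODE exon of 1339 bases MSGN1 would stand at 5.36 RPKM in clone 2, under DLL3. MESP1 likewise had a counted length of 2369 bases and a GENCODE length of 1094.

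Summed over the 10 genes, RPKM was 5.64 and 6.16 for WT, 14.8 and 14.7 for clone 1, and 32.6 and 26.0 for clone 2. LFNG made up 37.6% and 34.4% of that sum in WT and 6.00% and 7.36% in clone 2, although its own level had changed little. MSGN1 went from 0% in WT to 21.6% and 13.6% in clone 1 and 43.3% and 36.8% in clone 2. With the same counts divided by GENCODE lengths, the MSGN1 share was lower, at 11.3% and 6.75% in clone 1 and 25.7% and 20.9% in clone 2. DLL3 then held more of the sum than MSGN1 in every library of the clones. The GENCODE shares of MSGN1 can be too low, since the counts cover the deposited length only. The share of MSGN1 was larger in clone 2 than in clone 1 on either length. Its ratio of RPKM to TBX6 was 1.69 and 0.926 in clone 1 and 3.43 and 2.66 in clone 2, and on GENCODE lengths 0.759 and 0.415 in clone 1 and 1.53 and 1.19 in clone 2.

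**Figure D3:**
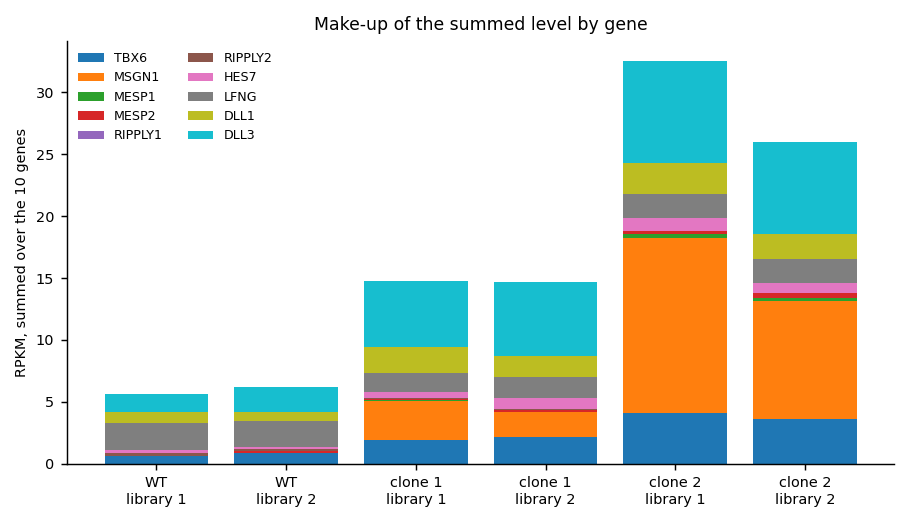
RPKM summed over the 10 genes (vertical axis) in each of the 6 libraries, stacked by gene. The sum is 5.64 to 6.16 in WT, 14.7 to 14.8 in clone 1 and 26.0 to 32.6 in clone 2, and the MSGN1 segment is absent in WT and the tallest in clone 2 on the deposited gene lengths used here. With the same counts divided by GENCODE lengths, which can understate MSGN1, DLL3 would be the tallest there.

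Other genes of the same tissue and pathway, taken from lists drawn up by function, were then set beside them. The lists were drawn up with earlier results of these data known, so their counts are no independent support. Of 20 further paraxial mesoderm and somite genes 17 were tested, and 15 were higher, 1 lower and 1 not called over both clones, with the same counts in each clone. Over all tested genes 14.9% were higher and 8.7% lower, here and for the lists over both clones that follow. These 17 genes had a median log2 fold change of 3.77, or 3.54 with NKX3-2, at 0 counts in WT, set to its bound. The T-box factor TBXT of the primitive streak (0 and 12 counts in WT, 3065 to 5515 in PCGF6-KO) and the posterior homeobox factor CDX2 (1 count in each WT library, 660 to 1481 in PCGF6-KO) had the largest fitted changes of the list. PAX3, a factor of the early somite and the neural crest, had 2 and 0 counts in WT and 204 to 298 in PCGF6-KO. NKX3-2, a factor of somite-derived cartilage, had 0 counts in WT and 5 to 15 in PCGF6-KO, and PAX9 of the sclerotome was the gene that fell, by 1.08 on the log2 scale (adjusted p = 0.0186, edgeR). Among 15 tested WNT and FGF genes of the clock and the PSM gradient, 14 were higher and 1 lower in PCGF6-KO and in each clone, and their median log2 fold change was 4.01. WNT3A, the ligand that maintains PSM progenitors, had 0 counts in WT and 146 to 196 in PCGF6-KO, and FGF17 had 0 in WT and 133 to 203. The WNT target genes SP5 (log2 fold change 9.68) and DKK1 (7.92) rose as well, and DUSP6, a feedback phosphatase of the FGF pathway, fell by 1.05 on the log2 scale (adjusted p = 3.7e-06, edgeR).

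The rest of the Notch pathway was taken in 3 lists. Of 8 tested further ligands and receptors, 3 were higher, 1 lower and 4 not called over both clones, with a median log2 fold change of 0.60. The ligand JAG1 rose from a mean of 5.29 RPKM in WT to 15.3 in clone 1 and 18.6 in clone 2 (log2 fold change 1.68, SE 0.12, adjusted p = 7.97e-06, edgeR). DLK1, a non-canonical ligand, rose by 2.63 and the ligand JAG2 by 1.09 on the log2 scale, and the receptor NOTCH4 fell by 0.98. The 3 receptors with the highest level, NOTCH1, NOTCH2 and NOTCH3, were not called (log2 fold changes of −0.09, 0.32 and 0.24). JAG1, JAG2 and DLK1 thus rose while these receptors stayed under the fold threshold.

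Among 7 tested further target genes, 3 were higher, 2 lower and 2 not called, with a median log2 fold change of 0.04. HES1, a repressor that also cycles in the PSM, rose by 1.91 on the log2 scale (SE 0.16, adjusted p = 2.2e-05, edgeR), with 89 and 91 counts in WT and 319 to 423 in PCGF6-KO. HES4 rose by 3.61 from 2 and 0 counts in WT, and HEY2 rose by 1.00. HEYL fell by 1.39 and had 118 and 143 counts for WT, 86 and 77 for clone 1, and 28 and 27 for clone 2. Targets of Notch therefore did not move in a single direction. Of 25 tested genes for processing Notch and transcribing its targets, 2 were higher, 4 lower and 19 not called, with a median of 0.11. Over all tested genes 14.9% were higher and 8.7% lower, and with so few calls no direction is read from the counts of this list. NEURL1, a ubiquitin ligase for Delta proteins, rose by 3.71 and the co-activator MAML3 by 0.71. MFNG, a Fringe enzyme like LFNG, fell by 2.52 (33 and 34 counts in WT, 3 to 12 in PCGF6-KO), DTX1 by 2.24, the secretase subunit APH1B by 0.94 and the ubiquitin ligase MIB1 by 0.65 on the log2 scale.

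**Figure D4:**
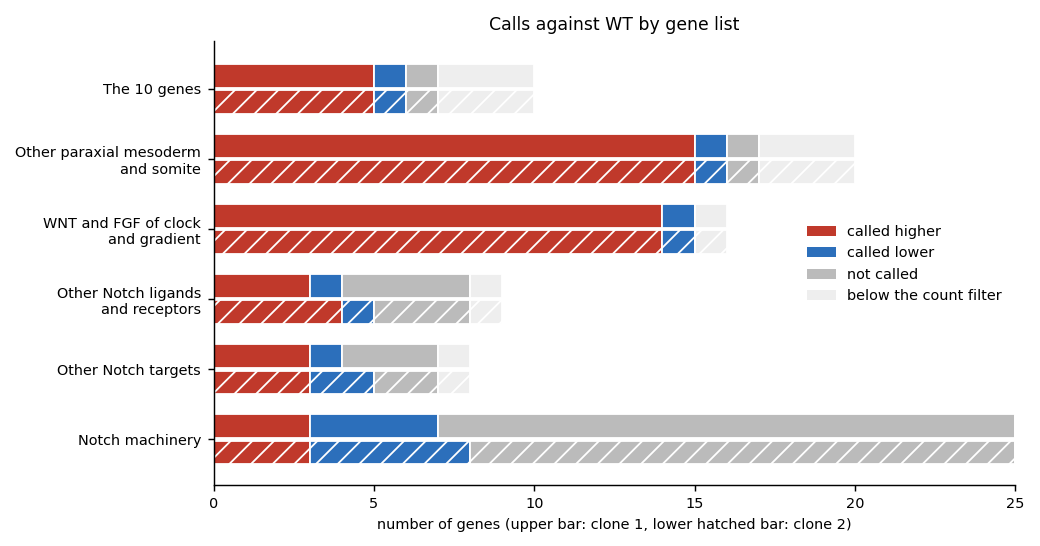
Number of genes (horizontal axis) called higher, called lower, not called or below the count filter in clone 1 (upper bar) and clone 2 (lower, hatched bar) against WT, for the 10 genes and 5 lists of related genes. The paraxial mesoderm, WNT and FGF lists are mostly called higher, and the Notch machinery is mostly not called, as were most of all tested genes.

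Markers of other cell types moved in the same libraries. The summed RPKM of 12 cardiac and lateral mesoderm markers was 25.9 in each WT library, 158 and 162 in clone 1, and 231 and 217 in clone 2, and 11 of the 12 were called higher over both clones (KDR, HAND1 and BMP4 had the highest levels). That of 7 definitive endoderm markers was 9.69 and 10.5 in WT, 100.1 and 92.2 in clone 1, and 117 in each clone 2 library, with 5 of 6 tested markers called higher (CER1, CXCR4 and GSC had the highest levels). Proneural markers, among which are genes that use DLL1 and DLL3 in neurogenesis, summed to 2.48 and 2.04 for WT, 6.36 and 6.82 for clone 1, and 5.24 and 5.89 for clone 2. Of these 12 genes 5 were tested, and INSM1 and ATOH1 were called higher and DCX lower. The 10 pluripotency markers summed to 2158 and 2243 for WT, 2031 and 2047 for clone 1, and 1915 and 1961 for clone 2, with POU5F1, L1TD1 and LIN28A at the highest levels and 1 marker, SOX2, called lower (log2 fold change −0.69). No marker in these lists was at 0 in all libraries. The summed levels of the cardiac and lateral markers and of the endoderm markers thus had the same order of groups as TBX6 and MSGN1. Between the clones, 8 of the 12 cardiac and lateral markers and 2 of the 6 tested endoderm markers were called higher in clone 2. None of the 5 tested proneural genes was called, and of the 10 pluripotency markers SOX2 was called lower. Over all tested genes 3.73% were called higher and 4.14% lower between the clones. The part of any of these cell types in the level of the PSM genes was not tested.

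For each tested gene, the genes with the most similar profile over the 6 libraries were found by the root mean square difference of centred log2(CPM + 1). TBX6 was closest to RGS2 (0.110), ABCC9 (0.111) and GADD45A (0.118), and MSGN1 to A2M (0.196), ATP12A (0.206) and KCNMB1 (0.210). For DLL3 these were RASGEF1B (0.0412), AP001972.5 (0.0952) and CLCF1 (0.103), and for DLL1 CHMP4C (0.0229), TMEM158 (0.0795) and TNFRSF12A (0.0817). HES7 was closest to TYRP1 (0.0590), MAN1A1 (0.0712) and RCN1 (0.0753), RIPPLY2 to RUNDC3A-AS1 (0.0416), FBXO44 (0.0456) and SCMH1 (0.0462), and LFNG to SYT1 (0.0230), FAM57A (0.0260) and FH (0.0279). None of the 10 genes was among the closest 3 of another. The 6 points of each profile share their 3 lines, so likeness here is mostly likeness of 3 group levels.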

How the data were processed

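RNA-seq libraries of WT PGP1 cells and of PCGF6-KO clones 1 and 2 were used, 2 of each, and grouped by the labels. Per the submitters' processing notes, the authors trimmed reads with Trim Galore (0.6.2), aligned them to GRCh38 with HISAT2 (2.1.0) and counted them with featureCounts. The deposited values are raw counts per gene, with the gene length that was used in counting. Annotation release, strand setting and treatment of multi-mapped reads are not given in the sources used here. No column held another sample. ChIP-seq was not analysed here.

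Genes were filtered with filterByExpr on the 2 genotypes (17672 of 57133 tested), scaled by TMM and tested with glmQLFit and glmQLFTest of edgeR (4.0.16, limma 3.58.1, R 4.3.3). PCGF6-KO was compared with WT as 1 group, and a fit with 3 groups gave the clones. SE is the log2 fold change over the root of F. Fold bounds use a floor of 3 counts per library, and count ratios have exact conditional binomial intervals, both covering counting error only. The script was tested on simulated data.

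The 10 genes, the lists and the naming rule were chosen with earlier results of these data known. Named besides the 10 genes were PCGF6, the up to 4 genes per list and direction with the largest change among those called alike in both clones, the 3 markers per list with the highest RPKM in PCGF6-KO, and the 3 closest profiles, with genes of the Y chromosome left out. NOTCH1, NOTCH2, NOTCH3, RIPPLY3, FAM120B and SOX2 were added after their values were seen. Alternatives were RLE and upper-quartile scaling, no filter, DESeq2 (1.42.0), other thresholds, a replicate block, the groups compared alone, the mean of the clones, sums per line and leaving out each library. GENCODE lengths for RPKM were added after the data were seen. Drawings used Python (3.11.15) with matplotlib (3.10.9).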

Additional observations from a re-analysis of the deposited data

Results flagged for a closer look

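TBX6 and MSGN1 responded to a different extent in the clones: the test of clone 2 against clone 1 gave a log2 fold change of 0.94 for TBX6 and 2.19 for MSGN1, with adjusted p of 7.17e-05 and 8.34e-07 (edgeR). Both genes were higher in each clone 2 library than in each clone 1 library. Each clone is a single line, and what sets the clones apart was not tested.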

How the results depend on the processing

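The number of the 7 tested genes called over both clones, 6, fell to 1 when libraries were summed per line, where DLL3 was called and adjusted p was 0.068 for MSGN1, 0.0697 for DLL1, 0.0865 for TBX6, 0.0955 for HES7 and 0.202 for RIPPLY2 (edgeR). That fit has 1 WT sample, which is assumed to vary like the clones, and it called 1839 of all tested genes, beside 4167. Leaving out a library gave 4 to 6 calls over both clones, 4 to 6 in clone 1, 6 in clone 2 and 2 between the clones. Of all 17672 tested genes, 3019 to 4270, 4008 to 4381, 4849 to 5229 and 1137 to 1390 were then called. DESeq2, in which all 10 genes were tested, gave 6, 4, 7 and 2 calls in the same order. MESP1 was called over both clones and in clone 2. Not called were RIPPLY2 over both clones (adjusted p = 0.0737), RIPPLY2 in clone 1 (0.322) and HES7 in clone 1 (0.0586, DESeq2). RIPPLY2 in clone 1 also lost its call without the filter (adjusted p = 0.0622, edgeR). Without the filter, MESP1 was called over both clones, in clone 2 and between the clones. No direction of a tested gene reversed, and scaling by RLE or upper quartile changed no call. With the adjusted p alone, LFNG in clone 1 and DLL3 between the clones were called, and calls over all genes were 6556 over both clones, 8002 beside 4379 in clone 1, 8904 beside 5197 in clone 2 and 3442 beside 1390 between the clones. DESeq2 tested 34053 genes over both clones and 34055 in the other comparisons. It called 3962 over both clones, 3526 in clone 1, 4392 in clone 2 and 810 between the clones.

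Replicate numbers did not pair the samples: differences between replicates correlated across 16851 genes with Pearson's r of 0.022, 0.058 and 0.115 between pairs of groups. With the replicate block, 5, 6, 6 and 2 of the genes were called over both clones, in clone 1, in clone 2 and between the clones. Of all 17672 tested genes 3876, 4420, 5233 and 1484 were called. The lost call was RIPPLY2 over both clones (adjusted p = 0.0638, edgeR). Depth limits MESP1, MESP2, RIPPLY1, RIPPLY2 and HES7, which had at most 34 counts in any library. Dividing the same counts by GENCODE lengths, an alternative chosen after seeing the data, moved the mean RPKM of MSGN1 in clone 2 from 11.8 to 5.36. The latter value can be too low, since the counts cover the deposited length only.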
